A study of Mus musculus with 12 samples.

Results

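The expression baseline of the normal mouse cortex at E13.5 (the embryonic day) was described from 3 bulk RNA-seq libraries, the wild-type libraries among 9 bulk libraries and 12 samples in the series. They were chosen by genotype label alone and are called WT1, WT2 and WT3. The embryos were labelled Med13L WT and came from crosses between Med13L heterozygous mice, so their dams carried a mutant allele. The study counted 3 brain tissues per genotype, and no sorting of cells is described for the bulk samples. The same series holds Het and KO cortex and single-cell samples, which are not used here. WT1 had 44525713 counts, WT2 had 52992392 and WT3 had 44290741 counts over 55335 gene IDs. In the labels' sample descriptions WT3 carries the letter F and the others the letter D. What the letters stand for is not given, and with 1 library of letter F the letter and the library cannot be told apart.

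At this age the dorsal telencephalon is a thin sheet built around a germinal layer. Radial glia line the ventricle, divide there and give rise to intermediate progenitors and to neurons, and the first excitatory neurons, those of the subplate and the deep layers, settle above them. GABAergic interneurons are born outside the cortex, in the ganglionic eminences, and migrate in. Vessels, meninges and blood cells come with the tissue in a dissection.

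Levels are given in TPM (transcript abundance), read counts divided by the summed exon length of a gene and scaled to the same total in each library, so that genes can be set beside each other. Differences between libraries are given in CPM, counts scaled to the same total after TMM normalisation, which are not per length. Values listed for a gene run in the order WT1, WT2 and WT3, and ± is the SD over the 3 libraries. All values are descriptions of 1 group, so no test was made. The spread among the 3 tissues joins biological and technical differences. In a bulk library, fewer cells of a type and less RNA per cell cannot be told apart.

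Of 21886 protein-coding nuclear genes, 13527 had a mean of 1 TPM or more, which is 61.8%. A mean of 10 TPM or more was reached by 9751 genes (44.6%) and 100 TPM or more by 1614 genes (7.37%), and 50 genes were at 1000 TPM or more. Over all 55335 IDs, 17085 genes reached 1 TPM. The 10 highest genes of a library held 10.7%, 10.9% and 13.02% of its TPM. The 100 highest held 27.6%, 27.4% and 31.4%, and the 1000 highest 53.7%, 53.7% and 57.0%. WT3 was the most concentrated library on all 3 measures. These shares are over all IDs and take in mitochondrial mRNAs and their nuclear copies, such as mt-Co1 at a mean of 17768 TPM and Gm10925 at 11624 TPM. They are not a property of the nuclear genes alone. With TPM over protein-coding nuclear genes only, the mean share of the 100 highest was 19.9%.

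By class, protein-coding nuclear genes took 76.8 ± 2.01% of the TPM, and the 13 mRNAs of the mitochondrial genome took 10.1 ± 1.27%. Pseudogenes took 10.6 ± 0.828%, of which 4.51 percentage points came from 7 pseudogenes that lie side by side on chromosome 1 between 24611535 and 24616197. Their sequences are near-copies of mitochondrial genes. Gm10925 is one of them, a copy of mt-Atp6, and its TPM was 1.06, 1.06 and 1.06 times that of mt-Atp6. For Gm28437, a copy of mt-Co3, the TPM ratio to mt-Co3 was 1.00, 1.00 and 1.00, and for Gm28661, a copy of mt-Co2, it was 1.00, 1.00 and 1.00. Every 75-base stretch of these 3 pseudogenes also occurs in the mitochondrial gene, so reads within them can hardly be assigned to copy or original. These levels are therefore uncertain in both places. As counts, the 7 pseudogenes held only 0.824% of the reads and the mitochondrial mRNAs 2.71%, since short genes weigh more in TPM.

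The mitochondrial mRNAs encode subunits of the respiratory chain and of ATP synthase. The highest was mt-Co1, a core subunit of cytochrome c oxidase, with 17767, 16866 and 18671 TPM. Cytochrome b, from mt-Cytb, had 12237, 12072 and 14449 TPM. The lowest was mt-Nd6, a complex I subunit and the only one of the 13 read from the light strand, with 650.5, 687 and 711 TPM. The class took 9.23%, 9.46% and 11.5% of the TPM in WT1, WT2 and WT3. A larger share for one class lowers the TPM of all others by construction. Over the 13527 genes at 1 TPM or more, the median log2 difference of WT3 from the mean of WT1 and WT2 was -0.12 in TPM and 0.00 in TMM-scaled CPM.

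The most abundant protein-coding nuclear genes served translation, the cytoskeleton and, through blood, oxygen transport. Eef1a1, the elongation factor that brings aminoacyl-tRNA to the ribosome (ENSMUSG00000037742, chromosome 9, 78478449 to 78489151 on GRCm38), led with 12345, 12527 and 12049 TPM. Next came Tuba1a, the main alpha-tubulin of newborn neurons (ENSMUSG00000072235, chromosome 15, 98949837 to 98953703), with 8337, 8046 and 9174 TPM. Ptma, a small acidic chromatin-associated protein of dividing cells, had 4555, 4506 and 4340.2 TPM. The ranges of these 3 genes overlapped neither each other nor those of the protein-coding nuclear genes below them. The order between genes depends on the length each count is divided by: Eef1a1 also led with the length of the longest transcript or the median transcript length, but with the latter Tuba1a was at 2746 TPM and Hsp90ab1 stood second at 4301 TPM.

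Microtubule genes were prominent as a family. The 17 tubulin genes of the alpha, beta and gamma families held 2.12 ± 0.0665% of the TPM, and 14 of them reached 1 TPM. The beta-tubulin Tubb2b had 3562, 3675 and 3758 TPM, the widely used beta-tubulin Tubb5 had 3009.9, 2969 and 3034 TPM, and the neuronal beta-tubulin Tubb3 had 1677, 1573 and 1771 TPM. The order Tubb2b, Tubb5, Tubb3 was the same in all 3 libraries, with ranges that did not overlap, but with the longest transcript as length the ranges of Tubb2b and Tubb5 overlapped, and with the median transcript length Tubb5 was above Tubb2b (3696 against 2073 TPM). Stmn1, which destabilises microtubules, had 2176, 1923 and 2468 TPM, and Marcksl1, an actin-binding protein at the membrane, had 2164, 2114 and 2226 TPM. Thymosin beta 10, from Tmsb10, sequesters actin monomers and had 2863, 2615 and 3334 TPM. Cytoplasmic gamma-actin (Actg1) had 2504 ± 83.9 TPM and beta-actin (Actb) 2421 ± 47.3 TPM, with overlapping ranges. Nnat, the imprinted gene of the membrane proteolipid neuronatin, reached 2562, 2206 and 3045 TPM, lowest in WT2 and highest in WT3, as Tmsb10 and Stmn1 were.

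The 84 ribosomal protein genes together held 5.21 ± 0.0980% of the TPM. Four-figure levels were seen for Rps15 at 2459 ± 36.9 TPM, Rps3a1 at 2058 ± 42.1 TPM, Rplp0 at 1995 ± 26.9 TPM and Rpl23a at 1751 ± 43.99 TPM. Elongation factor 2 (Eef2) had 2425 ± 116 TPM. The chaperone Hsp90ab1 had 3093 ± 27.98 TPM and the polyubiquitin gene Ubb 2966 ± 50.7 TPM. Ftl1, a ferritin light chain, had 2017 ± 143 TPM and the splicing regulator Hnrnpa1 1942 ± 92.9 TPM. Of the 25 highest genes, 10 shared at least 50% of the 75-base stretches of their longest transcript with another annotated gene, such as Tuba1b at 71.9% and Rpl23a at 72.8%, and 4 shared none. Levels of the former depend on how reads with several matches were counted, which is not given in the sources used here.

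**Figure D1:**
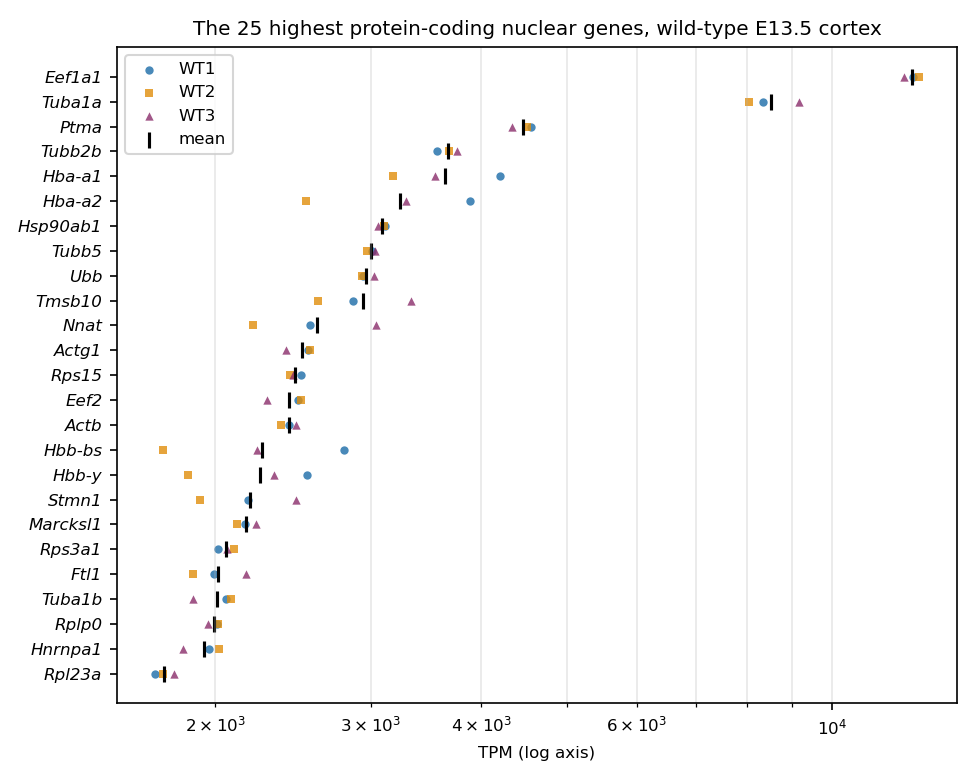
TPM of the 25 protein-coding nuclear genes with the highest mean, on a log axis, with 1 mark per library and a bar for the mean. Eef1a1 and Tuba1a stand above all others, and the globin genes Hba-a1, Hba-a2, Hbb-bs and Hbb-y are highest in WT1 and lowest in WT2.

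Start-site sequences are shown for genes of different kinds, chosen as examples after their levels were known. The stretch of 100 bases before the annotated start is printed, 5′ to 3′ on the coding strand, for a housekeeping gene (Eef1a1), a neuronal gene (Tubb3), both leading progenitor transcription factors described further on (Neurog2 and Eomes) and an adult and an embryonic alpha-globin gene. They come from RefSeq on GRCm38.p6, at chr9:78481725-78481824 on the minus strand for Eef1a1 and on the plus strand at chr8:123411453-123411552 for Tubb3, chr3:127633036-127633135 for Neurog2, chr9:118478089-118478188 for Eomes, chr11:32276500-32276599 for Hba-x and chr11:32283572-32283671 for Hba-a1. Capitals mark TATAA on the coding strand between 50 and 16 bases before the start, and GGGCGG and CCAAT on either strand.
Eef1a1: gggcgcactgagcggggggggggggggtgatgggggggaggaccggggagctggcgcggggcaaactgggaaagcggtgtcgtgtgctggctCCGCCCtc
Tubb3: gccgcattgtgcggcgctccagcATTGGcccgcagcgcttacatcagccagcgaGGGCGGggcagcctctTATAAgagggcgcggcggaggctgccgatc
Neurog2: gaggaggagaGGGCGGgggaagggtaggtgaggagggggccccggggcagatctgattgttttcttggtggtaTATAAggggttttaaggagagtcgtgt
Eomes: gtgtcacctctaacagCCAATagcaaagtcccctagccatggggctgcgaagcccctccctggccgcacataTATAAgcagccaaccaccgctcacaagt
Hba-x: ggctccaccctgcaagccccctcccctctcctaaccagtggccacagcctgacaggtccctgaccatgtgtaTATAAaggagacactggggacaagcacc
Hba-a1: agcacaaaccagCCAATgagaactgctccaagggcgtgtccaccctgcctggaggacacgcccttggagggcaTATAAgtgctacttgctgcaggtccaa
TATAA began 27 bases before the start in Neurog2 and Hba-a1, 28 bases before it in Eomes and Hba-x, and 30 bases before it in Tubb3. Eef1a1 held none in that window. Among starts of transcription factors at 10 TPM or more, TATAA stood in 1.78% of 618, so Neurog2 and Eomes are not typical of them. Among globin starts it stood in 71.4% of 7. The motif stands in 4.23% of all 32851 RefSeq starts, while GGGCGG on either strand stands in 35.7% and CCAAT on either strand in 37.4% of the windows from 250 bases before to 50 bases after the start. Of 20140 starts matched to a protein-coding nuclear gene, TATAA was found in 11.7% of those under 0.1 TPM, in 1.49% of those from 10 to 100 TPM and in 2.57% of those at 100 TPM or more. GGGCGG went the other way, from 11.2% under 0.1 TPM to 68.4% at 100 TPM or more. The median ratio of observed to expected CpG rose from 0.164 to 0.827 over the same classes, whereas CCAAT stayed between 34.9% and 39.2%. A match is a run of letters, not a measured binding site.

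Among long non-coding genes, 1144 of 9919 reached 1 TPM and 21 reached 100 TPM. The highest, Gm42418, lies over a ribosomal RNA repeat unit and had 686, 878 and 754 TPM. Its own reads and those of ribosomal RNA cannot be told apart. The next, Gm10076, had 695 ± 62.7 TPM and shared 51.3% of its stretches with other genes. Miat, a nuclear RNA known from neural progenitors and neurons (ENSMUSG00000097767, chromosome 5, 112213228 to 112229395), had 619.8, 586 and 472 TPM. H19, the maternally expressed imprinted RNA (ENSMUSG00000000031, chromosome 7, 142575529 to 142578143), had 630.0, 617 and 409.8 TPM, lowest in WT3. C130071C03Rik, the host RNA of a brain microRNA next to Mef2c, had 291, 313 and 288 TPM, and Mir124a-1hg, the host of the neuronal microRNA miR-124, had 173, 185 and 203 TPM. The other 4 of the 10 highest were Gm3764 (455 TPM), Cct6a (300.2 TPM), 2900097C17Rik (261 TPM) and Gm42047 (245 TPM). The annotation gives Cct6a, a chaperonin subunit gene, a non-coding biotype.

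Transcription factor genes were taken by symbol from 29 families with 1084 genes, of which 819 reached 1 TPM and 578 reached 10 TPM. That is 53.3% at 10 TPM, beside the 44.6% of all protein-coding nuclear genes. The class of neural zinc finger genes gave 527 of the 1084 genes and 346 of the 578. The pooled share is therefore largely that of this class and does not hold for factor families in general. Neurod6, a bHLH factor of excitatory cortical neurons (ENSMUSG00000037984, chromosome 6, 55677822 to 55681263), was the highest with 904, 947 and 817 TPM. Sox11 and Sox4, HMG-box factors that switch on neuronal genes, followed with 587, 599 and 611 TPM and 581, 642 and 545 TPM, and their ranges overlapped each other and no other factor. Zbtb18, a zinc finger repressor needed for cortical neuron differentiation, had 389, 433 and 306 TPM. Neurog2, the proneural bHLH factor of dorsal progenitors, had 325, 314 and 297 TPM. Lhx2, the LIM-homeobox selector of cortical identity, had 280.4, 315 and 283 TPM.

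Below these, neighbours in the order could not be told apart by their ranges. Among the 29 neighbouring pairs of the 30 highest factors, 26 overlapped. Gaps were seen only after Neurod6, after Sox4 and after Neurod2. Neurod6, Sox11 and Sox4 were also the highest 3 with the length of the longest transcript, whereas with the median transcript length Zbtb18 led at 1238 TPM, followed by Tcf4 at 934 TPM. The nuclear receptor Thra had 308 ± 8.50 TPM and the nuclear factor I genes Nfix and Nfib, which act in the maturation of radial glia, 302 ± 30.8 TPM and 235 ± 28.5 TPM. Id4, an inhibitor of bHLH factors, had 295 ± 15.9 TPM, and Neurod2, a bHLH factor of excitatory neurons, 291 ± 4.12 TPM. Nr2f1, an area-patterning nuclear receptor that is graded across the cortex, had 219 ± 17.1 TPM, and Zfp57, a guardian of imprinted methylation, 221 ± 17.6 TPM. The T-box genes Eomes and Tbr1 had CVs of 0.974% and 1.12% in TMM-scaled CPM, the smallest of the 30. Zfp462 had the largest CV of the 30, 25.7%, with 179, 199.5 and 108 TPM. The remaining named factors ran from Tfdp1 (209.8 TPM) through Zfp422 (209 TPM), Zfp740 (206 TPM), Zfp207 (202 TPM), Tead2 (198 TPM), Sox12 (194 TPM), Atf4 (193 TPM), Tcf3 (185 TPM), Adnp (177 TPM), Zbtb12 (176 TPM) and Zfp362 (175 TPM) to Pou3f3 (168 TPM). Adnp shares 88.97% of its stretches with a predicted gene.

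**Figure D2:**
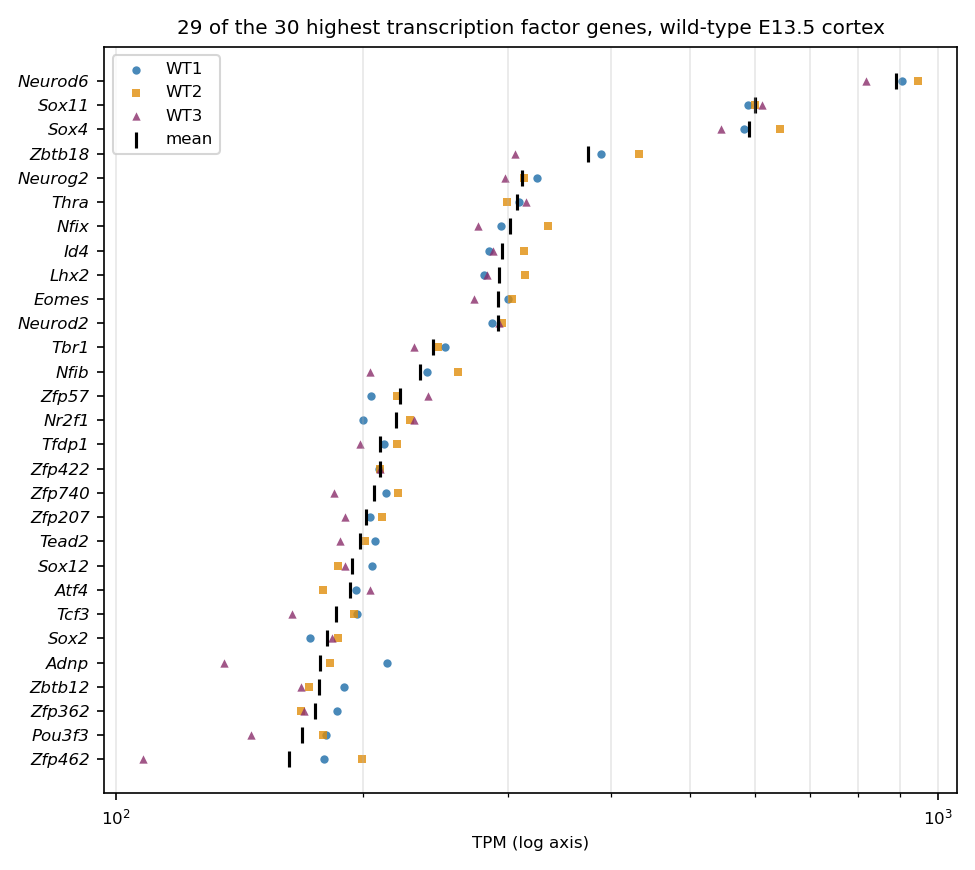
TPM of 29 of the 30 transcription factor genes with the highest mean, on a log axis, with 1 mark per library and a bar for the mean. Neurod6 lies apart at the top, the Sox11 and Sox4 ranges overlap, and from Zbtb18 down most neighbours overlap.

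Families differed in how many members were present. Over all 1084 factors, 75.6% reached 1 TPM, beside 61.8% of all protein-coding nuclear genes. All 4 NFI genes, all 11 TALE homeobox genes and all 11 Myc and Max family genes did. In the Sox family 15 of 19 reached 1 TPM, near the share over all factors, with a summed level of 1993 TPM. Of 9 Pax genes only Pax6 reached 1 TPM, and of 9 GATA and RUNX genes only Gata2, a factor of blood and midbrain cells, at 1.38 TPM. None of the 39 Hox genes, which pattern the hindbrain and spinal cord, reached 1 TPM. No read was counted for 33 of them, and the highest, Hoxb9, had a mean of 0.221 TPM and at most 14 counts in a library.

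Markers of cell types were read from 22 lists. All 15 radial glia genes were at 10 TPM or more, beside 44.6% of all protein-coding nuclear genes. Fabp7, the brain lipid-binding protein of radial glia (ENSMUSG00000019874, chromosome 10, 57784881 to 57788450), was their highest with 709, 755 and 781 TPM. The intermediate filaments Vim and Nes had 537, 551 and 514 TPM and 371, 368 and 291 TPM. Sox2, the neural stem cell factor, had 172, 186 and 183 TPM, and Pax6, the dorsal progenitor factor, 58.8, 53.8 and 46.1 TPM. The Notch effectors Hes1 and Hes5, which hold radial glia in the progenitor state, had 54.1, 55.03 and 54.9 TPM and 51.4, 50.99 and 50.1 TPM. Hopx, a marker of outer radial glia at later stages, was the lowest with 14.5, 17.9 and 16.9 TPM.

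Intermediate progenitor genes were all present as well, 10 of 10 at 10 TPM or more. Eomes, the T-box factor that marks these cells (ENSMUSG00000032446, chromosome 9, 118478212 to 118486132), had 299.9, 303 and 273 TPM. Sstr2, a somatostatin receptor, had 149.6, 162 and 142 TPM, and Btg2, an antiproliferative gene of neurogenic divisions, 115, 111 and 119 TPM. Insm1, a zinc finger factor of delaminating progenitors, had 96.8, 76.7 and 77.4 TPM. Neurog1, the paralog of Neurog2, stood at 26.2, 21.1 and 24.6 TPM, far below Neurog2.

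Genes of newborn projection neurons had the highest median of all 22 lists, 298 TPM over 10 members, and pan-neuronal genes the next, 210.4 TPM over 15, an order that turned with the median transcript length (166 and 181 TPM). Dcx, the microtubule protein of migrating neurons, had 318, 359 and 255 TPM. Cntn2, an axonal adhesion protein, had 243, 283 and 238 TPM, and Rnd2, a small GTPase downstream of Neurog2, 346, 272 and 296 TPM. Dpysl3, a growth cone protein, had 681 ± 32.2 TPM, and the growth cone protein Gap43 436, 359 and 504 TPM. Members of the pan-neuronal list lay far apart. Mapt and Map2, which bind microtubules in axons and dendrites, had 213 ± 28.4 TPM and 210.4 ± 9.36 TPM. Lower levels were seen for Snap25, a SNARE of synaptic vesicle fusion, at 34.3 ± 3.28 TPM, and Syt1, the calcium sensor of that fusion, at 34.1 ± 5.86 TPM. The neurofilament light chain Nefl had 13.7 ± 3.70 TPM.

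Deep-layer and subplate genes were present at 1 TPM or more for all 12 members, 9 of them at 10 TPM or more. Tbr1, the factor of layer 6 and subplate neurons (ENSMUSG00000035033, chromosome 2, 61802930 to 61814114), had 251, 247 and 231 TPM. Fezf2, which specifies subcerebral projection neurons, had 145, 155 and 148 TPM, and Bcl11b, acting downstream of it, 120.5, 129 and 88.8 TPM. Subplate genes included Nxph4 at 52.2 ± 8.80 TPM, Nr4a2 at 29.5 ± 3.69 TPM and Ccn2 at 5.76 ± 1.19 TPM. Ccn2 and the layer 6 factor Foxp2, at 5.90 ± 0.798 TPM, were the lowest of the list.

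Upper-layer genes were also detected, although the neurons of these layers are born later. Pou3f3 and Pou3f2, POU factors also found in progenitors, had 180.3, 178 and 146 TPM and 67.3, 52.4 and 41.95 TPM. Cux2, an upper-layer and progenitor factor, had 25.3, 28.3 and 26.9 TPM. Rorb, the layer 4 receptor, was low at 4.84, 4.08 and 3.94 TPM, and Inhba lay under 1 TPM at 0.558 ± 0.112 TPM. Of the 10 genes, 9 reached 1 TPM and 7 reached 10 TPM.

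Cajal-Retzius genes, of the earliest marginal zone neurons, reached 1 TPM in 10 of 10 cases. Reln, the secreted layering signal, had 40.1, 36.6 and 33.1 TPM, Trp73, a p53 family factor that these cells need, 22.1, 21.6 and 23.5 TPM, and Calb2, the calcium-binding protein calretinin, 22.2, 19.04 and 28.4 TPM. Cortical hem genes, of the dorsal midline source of WNT and BMP signals, reached 1 TPM in 9 of 10 cases. Among them the R-spondin Rspo3 had 39.3, 45.3 and 40.3 TPM, Wnt8b 16.6, 23.1 and 25.4 TPM and Wnt3a 5.58, 7.85 and 8.97 TPM. The dorsal midline ligand Gdf7 was at 0.323 ± 0.316 TPM.

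**Figure D3:**
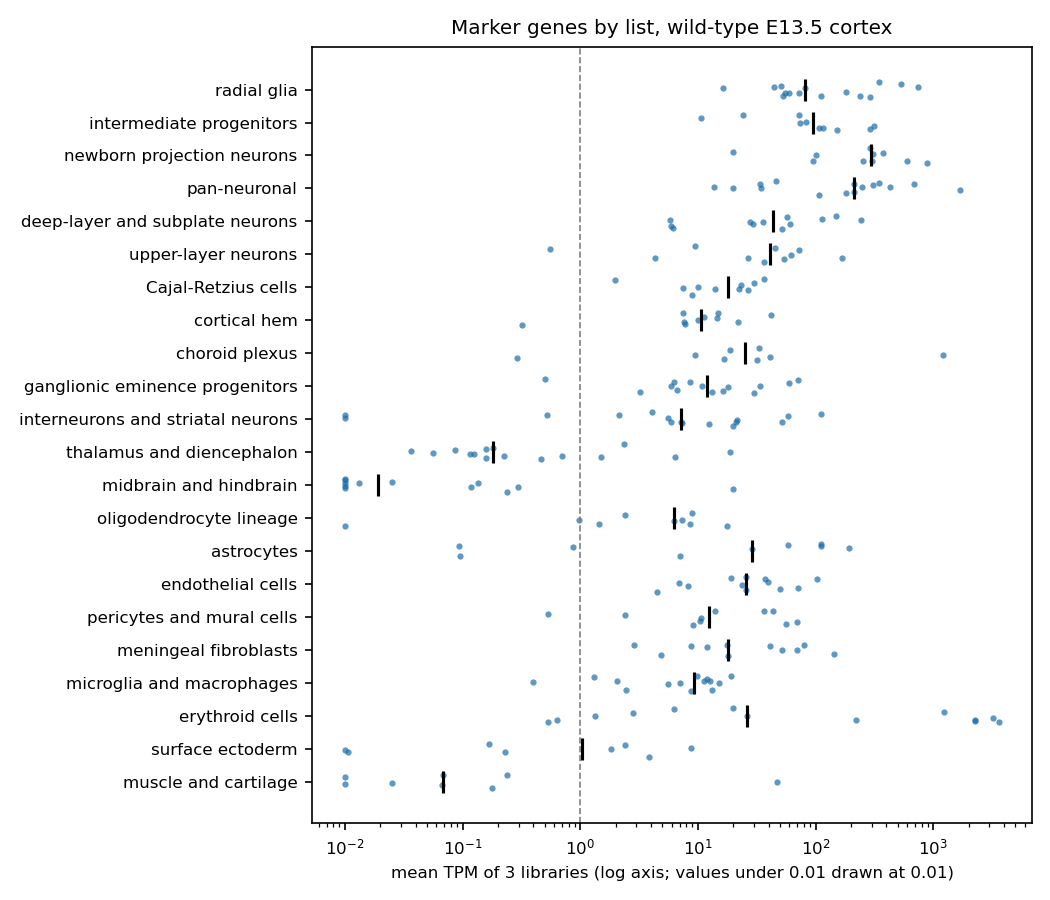
Mean TPM over the 3 libraries for every member of the 22 marker lists, on a log axis with a dashed line at 1 TPM and a bar at each list's median. Newborn neuron and pan-neuronal lists lie highest, and the thalamus, midbrain and hindbrain, and muscle and cartilage lists lie mostly under 1 TPM.

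Transmitter genes showed both excitatory and inhibitory identities. The vesicular glutamate transporter Slc17a6 had 55.5, 57.4 and 53.98 TPM and Slc17a7 38.8, 42.3 and 38.1 TPM, the former 1.40 ± 0.0394 times the latter. The GABA-synthesising enzymes Gad2 and Gad1 had 27.5, 28.96 and 33.2 TPM and 15.97, 15.3 and 18.04 TPM, and the vesicular GABA transporter Slc32a1 9.77, 7.70 and 14.8 TPM. Of the cholinergic and monoaminergic genes on the list, the vesicular monoamine transporter Slc18a2 had 5.32, 3.48 and 3.18 TPM and Th, the catecholamine synthesis enzyme, 0.945, 0.796 and 1.90 TPM. The others had means under 1 TPM, with Chat, the acetylcholine synthesis gene, at 0.0108 ± 0.0187 TPM, Slc6a3, the dopamine transporter gene, at 0.0550 ± 0.0613 TPM, and no read of Dbh, the noradrenaline synthesis gene, which allows up to 0.0923 TPM in a library at 3 counts.

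Genes of the ganglionic eminences and of interneurons were present at moderate levels in tissue labelled cortex. Of 14 ganglionic eminence progenitor genes, 13 reached 1 TPM and 8 reached 10 TPM. The ventral homeobox genes Dlx1 and Dlx2 had 54.8, 53.8 and 69.1 TPM and 32.9, 32.99 and 35.9 TPM. Nkx2-1, the factor of the medial eminence, had 1.66, 2.33 and 5.61 TPM. Sst, the neuropeptide of a main interneuron class, had 94.95, 101 and 141 TPM, and Lhx6, the factor of interneurons from the medial eminence, 18.2, 21.2 and 24.6 TPM. Later interneuron markers were not detected: Pvalb and Vip had no count in any library, which allows up to 0.239 TPM and 0.0730 TPM in a library.

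Other brain regions left few traces. Of 15 thalamic and diencephalic genes, 4 reached 1 TPM: Lhx9 with 18.9 ± 0.426 TPM, Tcf7l2 with 6.40 ± 0.746 TPM, Olig3 with 2.36 ± 0.949 TPM and Irx3 with 1.504 ± 0.119 TPM. The thalamic factor Gbx2 had 0.159 ± 0.0728 TPM. Of 12 midbrain and hindbrain genes only 1 reached 1 TPM. No count was found in any library for En1, a midbrain-hindbrain boundary gene, or the hindbrain genes Hoxa2, Hoxb2 and Hoxb3. Muscle regulators Myod1 and Myog had none either. Col2a1, a cartilage collagen that the embryonic neuroepithelium also makes, was the exception in its list with 48.6, 49.2 and 43.2 TPM.

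Mature glia were hardly represented. Gfap, the filament of mature astrocytes, had 0.0954 ± 0.0153 TPM and S100b 0.0940 ± 0.163 TPM, while Slc1a3 and Aldoc, which radial glia share with astrocytes, had 58.99 ± 6.72 TPM and 192 ± 7.04 TPM. Mog, of myelinating cells, had no count, and Sox10, the oligodendrocyte lineage factor, had 0.190, 2.10 and 0.650 TPM. Microglial genes were low but present, 13 of 14 at 1 TPM or more, with C1qb, a complement subunit, at 20.5, 18.7 and 18.01 TPM, Csf1r, the receptor that microglia need, at 13.8, 12.5 and 9.41 TPM, and P2ry12, the microglial purinergic receptor, at 6.34, 6.30 and 4.22 TPM.

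Vessel, mural and meningeal genes mostly showed the same order of libraries. All 12 endothelial genes reached 1 TPM, with Cdh5, the endothelial cadherin, at 89.6, 74.3 and 49.9 TPM and Cldn5, the tight junction protein of brain vessels, at 71.3, 43.3 and 34.7 TPM. In TMM-scaled CPM, 12 of the 12 were highest in WT1 and 11 lowest in WT3, where WT1 was highest for 26.5% and WT3 lowest for 39.2% of the protein-coding genes at 1 TPM or more. Of 9 mural cell genes at 1 TPM or more, 7 were highest in WT1 and 9 lowest in WT3, among them Vtn, made by brain pericytes, with 92.4, 68.6 and 47.5 TPM. All 11 meningeal fibroblast genes were highest in WT1 and lowest in WT3, led by the collagen gene Col3a1 with 192, 154 and 80.3 TPM and Lum, a matrix proteoglycan, with 98.4, 88.4 and 54.1 TPM. The median log2 difference of WT3 from the mean of WT1 and WT2 was -0.49, -0.73 and -0.66 for the 3 lists, beside 0.00 over all protein-coding genes at 1 TPM or more.

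Blood and choroid plexus genes ordered the libraries differently. The adult-type alpha-globin Hba-a1 had 4207, 3179 and 3544 TPM, and the embryonic beta-type globin Hbb-y 2541, 1864 and 2334 TPM. Hba-a1 and Hba-a2 are near-identical copies, so the level of each alone is uncertain. The 13 erythroid genes summed to 15242, 10648 and 12810 TPM. Of the 11 at 1 TPM or more, 10 were lowest in WT2, where 32.5% of all protein-coding genes were, and 9 were highest in WT1. Ttr, the thyroid hormone carrier and leading choroid plexus transcript, had 388, 1746 and 1482 TPM. Kcne2, a potassium channel subunit of that epithelium, had 11.3, 45.5 and 42.8 TPM, Clic6, a chloride channel protein, 20.4, 60.6 and 41.9 TPM, and Folr1, its folate receptor, 4.58, 14.5 and 9.16 TPM. All 7 choroid plexus genes at 1 TPM or more were lowest in WT1, where 28.3% of all protein-coding genes were, and 5 were highest in WT2, beside 32.7%. The epithelial keratins Krt18 and Krt8 went with them at 2.02, 13.1 and 10.9 TPM and 1.73, 5.34 and 4.40 TPM, while of the epidermal keratins Krt5 had 1 count, in WT2, and Krt14 had no count in any library, which allows up to 0.141 TPM in a library.

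Pan-neuronal, ventral and Cajal-Retzius genes mostly stood highest in WT3, while other neuronal lists did not. Of 15 pan-neuronal genes, 14 were highest in WT3 in TMM-scaled CPM, beside 40.8% of all protein-coding genes, with a median log2 difference of 0.34. Ina, a neuronal intermediate filament, had 266, 211 and 362 CPM, and Stmn2, a stathmin of growing axons, 269, 239.8 and 341 CPM. All 13 ganglionic eminence genes at 1 TPM or more were highest in WT3 (median 0.55), with Nkx2-1 at 1.28, 1.80 and 4.71 CPM. Of 13 interneuron and striatal genes, 11 were highest there (median 0.32), with Sst at 18.6, 19.7 and 30.05 CPM and the striatal factor Isl1 at 3.64, 3.19 and 6.79 CPM. Among 10 Cajal-Retzius genes, 9 were highest in WT3 (median 0.23). The exception was Reln, the most abundant of them, which was lowest there at 258, 235 and 233 CPM. Radial glia, intermediate progenitor and newborn neuron lists had medians of 0.04, -0.01 and 0.02. The deep-layer and upper-layer lists had medians of -0.03 and -0.06. The cycle genes of G2 and M phase, all 20 of them at 10 TPM or more, were lowest in WT3 in 14 of 20 cases, beside 39.2% of all protein-coding genes (median -0.13), with Mki67, the proliferation antigen, at 742, 758 and 503 CPM. The part of these cell-type and cell-cycle genes in the spread of other genes was not tested.

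**Figure D4:**
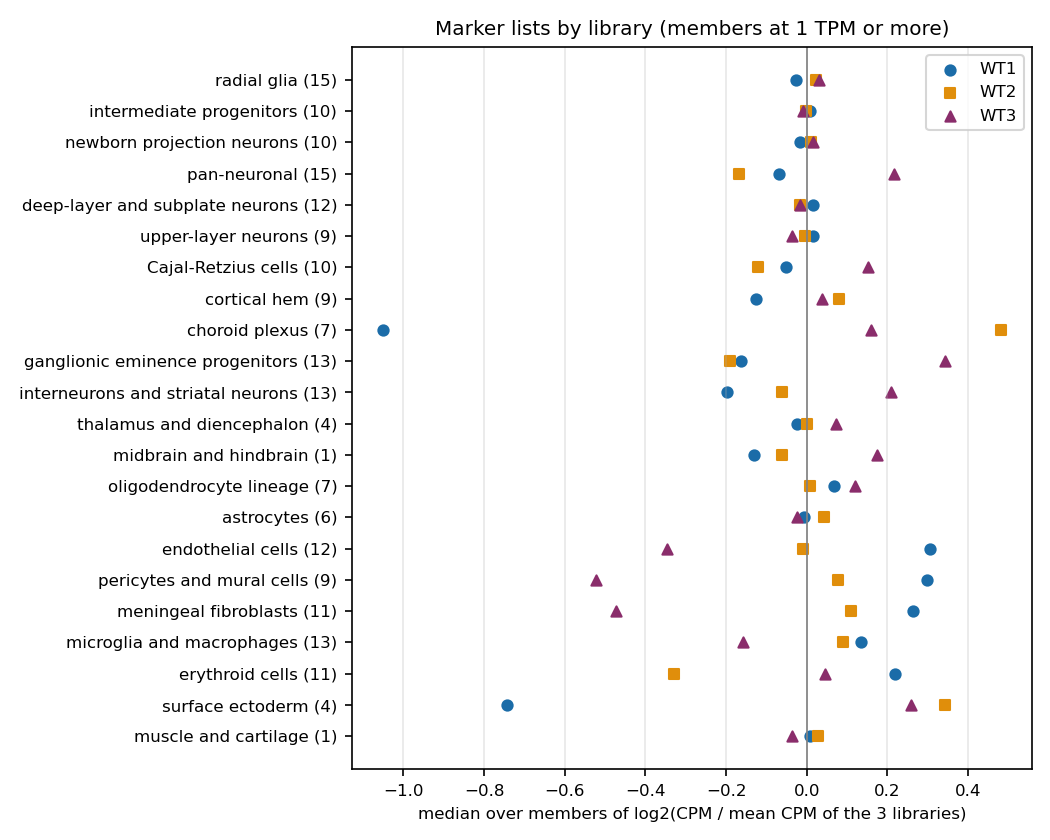
Median over the members of each marker list of the log2 ratio of a library's TMM-scaled CPM to the mean of the 3 libraries, for members at 1 TPM or more (their number in brackets). WT1 lies far to the left on the choroid plexus list at -1.05, and WT3 lies left on the mural and meningeal lists at -0.52 and -0.47 and right on the ganglionic eminence list at 0.34.

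WT3 also differed from the other libraries by gene length. The 9751 genes at 10 TPM or more were split into 5 equal bins by merged exon length. In the shortest bin, 255 to 2657 bases, the median log2 difference of WT3 from the mean of WT1 and WT2 was 0.16, and in the longest, 7902 to 41155 bases, it was -0.14. The bins between gave 0.08, 0.02 and -0.04, so the difference fell at each step. WT1 against WT2 gave medians between -0.03 and 0.02 over the same bins. Across genes the Spearman correlation of the WT3 difference with length was -0.472 (n = 9751 genes of the same 3 libraries, a description). After the median of genes of similar length was subtracted, the WT3 differences were -0.50 for endothelial, -0.72 for mural and -0.72 for meningeal genes. They were 0.32 for pan-neuronal, 0.30 for Cajal-Retzius, 0.44 for ganglionic eminence, 0.37 for interneuron and striatal and -0.11 for G2 and M phase genes. These lists kept the sign of their difference. Intermediate progenitor genes moved from -0.01 to -0.10, close to the G2 and M phase value.

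Sex of the embryos differed too. Xist, the RNA that coats the inactive X chromosome, had 371, 0.0660 and 0.0510 TPM, and the Y-linked translation factor gene Eif2s3y 0.179, 70.3 and 56.1 TPM. WT1 therefore had the transcripts of a female and WT2 and WT3 those of males, and with 1 female library sex and library cannot be told apart. Ddx3y, Kdm5d and Uty on the Y chromosome followed Eif2s3y, at 3 to 5 counts in WT1. X-linked genes known to escape inactivation were highest in WT1 for Eif2s3x at 311, 224 and 200.4 CPM, Kdm5c at 240.1, 172 and 145 CPM and Kdm6a at 84.4, 61.4 and 42.8 CPM, but Ddx3x had 647, 690.0 and 417 CPM, with WT1 and WT2 close. Over the 341 X-linked genes at 10 TPM or more, the ratio of the X-linked to the autosomal median TPM was 1.07 in WT1, 1.10 in WT2 and 1.07 in WT3.

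Pairs of related genes that switch during neuronal development were compared by their TPM ratio. In 17 of 25 pairs the first named, mostly progenitor or embryonic, member was higher in all 3 libraries, in 8 the second was, and in 0 the order differed between libraries. The direction of 7 pairs turned under another definition of gene length, the pairs led by Ptbp1, Ss18, Phf10, Slc12a2, Elavl1, Igf2bp1 and Snap23, so no order is drawn for those. Among nuclear lamins Lmnb1, the B-type lamin of neural progenitors, was 123, 135 and 117 times Lmna, the A-type lamin of stiff, mature nuclei. Grin2b, the embryonic NMDA receptor subunit, was 63.6, 43.4 and 28.8 times Grin2a. This ratio rests on a second member at 0.309 ± 0.0761 TPM, and it differed widely among the libraries. Both ratios depend on the length used: with the median transcript length they were 55.7 for Lmnb1 and 370.4 for Grin2b, in the opposite order.

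Stmn1 was 12.3, 12.2 and 12.02 times Stmn2, and Map1b, the early microtubule-associated protein, 12.2, 11.3 and 11.3 times Map1a. Ezh2, the Polycomb methyltransferase of dividing cells, was 10.9, 11.9 and 9.84 times Ezh1. Among D-type cyclins Ccnd2 was 6.89, 7.93 and 5.65 times Ccnd1, and among sodium channels Scn3a, the fetal form, was 5.12, 4.67 and 4.21 times Scn1a. The glucose transporter of the vessel wall, Slc2a1, was 10.6, 8.93 and 7.52 times the neuronal Slc2a3, highest in WT1 and lowest in WT3 as most endothelial genes were. Actl6a, the progenitor BAF subunit, was 2.04, 2.15 and 1.44 times Actl6b, its neuronal counterpart, a ratio that was lowest in WT3. Its mean fell from 1.88 to 1.24 with the median transcript length, so the order in WT3 is not firm. Dnmt3b, an early embryonic DNA methyltransferase, was only 0.174, 0.178 and 0.142 times Dnmt3a. Of the alpha-globins, embryonic Hba-x was 0.0624, 0.0558 and 0.0633 times Hba-a1, whereas embryonic Hbb-y was 1.72, 1.69 and 2.05 times the adult-type Hbb-bt. The other adult-type gene, Hbb-bs, had 2796, 1747 and 2231 TPM, a range that overlapped that of Hbb-y. Hbb-bt and Hbb-bs share 56.6% and 64.3% of their stretches with other genes, so the level of each alone is uncertain. Hmgb2 and Hmgb1 had overlapping ranges, 479 ± 32.7 TPM and 498 ± 10.7 TPM.

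Spread among the 3 libraries was small for most genes. The median CV of TMM-scaled CPM was 7.38% over the 9751 protein-coding nuclear genes at 10 TPM or more, with quartiles of 4.43% and 11.6%. Counting error alone gave a median of 2.03%. For 662 genes (6.79%) the spread did not exceed counting error, and 627 (6.43%) had a CV over 20%. The median CV fell from 24.1% at 1 to 3 TPM to 6.21% at 100 to 300 TPM. The common biological coefficient of variation by edgeR was 17.9% over 17206 genes. WT1 and WT2 were most alike, with a median absolute log2 difference of 0.08, against 0.14 for WT1 with WT3 and 0.16 for WT2 with WT3, and without WT3 the median CV was 4.00%.

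**Figure D5:**
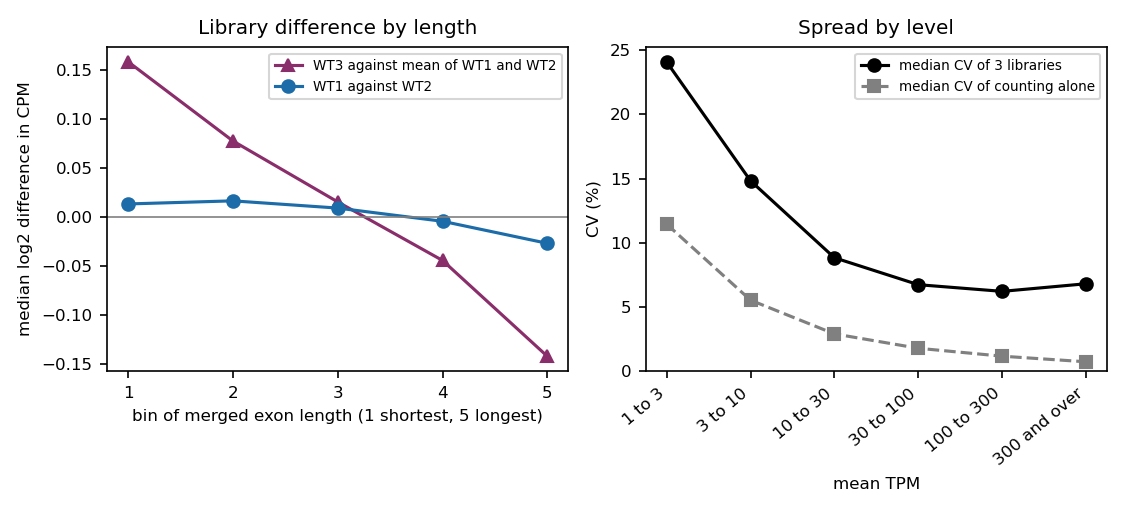
Left, median log2 difference in TMM-scaled CPM by bin of merged exon length, for WT3 against the mean of WT1 and WT2 and for WT1 against WT2. The WT3 line falls from 0.16 to -0.14. Right, median CV of the 3 libraries and of counting error alone by mean TPM; from 30 TPM up the CV of the libraries stays between 6.21% and 6.81% while counting error keeps falling.

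Most of the genes that varied most shared sequence with other genes or lay on the Y chromosome. Among the 20 protein-coding genes with the largest CV beyond counting error, 12 shared at least 50% of their stretches with another gene and 3 were Y-linked. Sharing was computed for selected genes only, so the share over all genes at 10 TPM or more is not known. It was 10 of the 25 highest genes and 4 of the 384 listed marker genes, so whether 12 of 20 is unusual was not tested. Rpl29, a ribosomal protein gene with many processed copies, had 241, 39.2 and 271 CPM, low only in WT2. Cwc22, a splicing factor gene (chromosome 2, 77881159 to 77946375), had 841, 869 and 54.97 CPM, low only in WT3, and shared 21.3% of its stretches with a predicted gene. Snhg11, a small nucleolar RNA host gene annotated as coding, had 84.3, 9.71 and 105 CPM, low only in WT2, and shared 0.484%. Nts, the neuropeptide neurotensin, shared none and had 3.30, 2.08 and 7.47 CPM, highest in WT3. The 3 Y-linked genes were Ddx3y, Eif2s3y and Kdm5d. The other 13 were Gm20521, Gm49027, Zc3h11a, Tpm3-rs7, Gm8797, Gm43720, Gm49378, Gm49510, AL732309.1, Gm10260, Gm45717, AC117239.2 and Gm3411, with CVs between 67.0% and 136%.

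The genes picked for the smallest CV had varied roles. The 10 with the smallest CV were Vkorc1l1, a vitamin K epoxide reductase, Golph3, a Golgi trafficking protein, Heatr6, Orc4, a subunit of the origin recognition complex, Grpel2, a mitochondrial import factor, the centriolar protein gene Poc5, 2310022B05Rik, Itpripl1, the kinetochore gene Zwilch and the endocytic gene Sh3gl1. Vkorc1l1 had 90.5, 90.6 and 90.6 CPM and Golph3 83.8, 83.7 and 83.8 CPM. Their CVs ran from 0.0894% to 0.225%, under the counting error of 1.37% to 3.71% in the same genes. They were picked as the smallest of 9751 CVs, each from 3 libraries, so values this low follow from the choice. Whether these genes are steadier than others cannot be read from them.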

How the data were processed

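Read counts per Ensembl gene were deposited by the authors as raw whole numbers for 9 bulk libraries, and the 3 wild-type columns were used. The 6 Het and KO columns were not used. The submitters' processing notes name STAR 25.2b, StringTie 2.2.1 and the build mm10. The annotation release, strand setting and treatment of multi-mapping reads are not given in the sources used here. Per the labels' protocols, RNA was extracted with RNAiso Plus and libraries were made with a VAHTS V10 kit.

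GENCODE M21 on GRCm38 matched 55154 IDs and gave merged exon lengths for TPM, with the sum taken over all genes. CPM used TMM sizes from edgeR 4.0.16. Sequence sharing was the percentage of 75-base stretches of a gene's longest transcript found in another gene's transcripts. The dispersion step was tested on simulated data. Named genes were the 25 highest protein-coding nuclear genes, the 13 mitochondrial mRNAs, the 10 highest long non-coding genes, the 30 highest transcription factors, members of fixed lists and pairs, and the 20 most and 10 least variable genes. The pseudogenes on chromosome 1 and Gata2 were named after their values were seen. A few members of these groups are not reported here, though counts include them. Members and lists were chosen with earlier results of these data known. Alternatives changed gene lengths, thresholds, size factors (DESeq2 1.42.0) and libraries. Intervals and floors of 3 counts cover counting error only.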

Additional observations from a re-analysis of the deposited data

How the results depend on the processing

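The number of genes at 1 TPM or more, 17085, ranged from 15068 to 19258 over the planned lengths, thresholds and left-out libraries and was 13811 with TPM over protein-coding nuclear genes only, and the number of transcription factors at 10 TPM or more, 578, ranged from 403 to 684 over all of these. The share of TPM in the 100 highest genes was 28.8%, and it was 26.1% with the longest transcript as length, 18.8% with the median transcript length, 19.9% over protein-coding nuclear genes only, and 27.5% to 29.5% when a library was left out. Of the 25 highest genes, 20 were kept with the longest and 12 with the median transcript length, and of the 30 transcription factors 23 and 12. Levels compared between genes depend on this choice. The count of pairs with the first member higher was 17 under every length, library and gene set tried. Gene sets and left-out libraries could not change it, since ratios within a library stay the same and 0 pairs had a mixed order. Under other lengths the count was equal but the pairs were not the same. The mean ratio of 2 pairs turned with the longest and of 6 with the median transcript length.

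The median CV was between 6.62% and 9.10% under other size factors and thresholds, and between 4.00% (without WT3) and 7.66% when a library was left out. The common coefficient was 17.9%, and it was 21.8% without the expression filter, 14.9% at 10 TPM or more and 14.5% (without WT3) to 20.3% when a library was left out. Subtracting the median of genes of similar length, chosen after seeing the data, turned the sign of 6 small list differences of WT3, to -0.00357, -0.0122, 0.0108, 0.102, -0.108 and 0.0670 on the log2 scale for radial glia, newborn projection neurons, deep-layer and subplate neurons, upper-layer neurons, erythroid cells, and muscle and cartilage. No paired analysis was possible because only 1 group was described. With 3 libraries, differences under about the CV of a gene's level are not resolved.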

Other observations

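Signalling genes were read from further lists. Of 16 FGF ligands and receptors, 12 reached 1 TPM and 5 reached 10 TPM, beside 61.8% and 44.6% of all protein-coding nuclear genes. Fgfr3, a receptor of ventricular zone cells, had 109, 126 and 99.3 TPM, while Fgf8, the anterior patterning ligand, had 1.59, 0.723 and 2.54 TPM and Fgf17, its relative, 10.05, 9.45 and 17.2 TPM, both highest in WT3. Of 21 WNT genes, 19 reached 1 TPM. Ctnnb1, the shared transducer beta-catenin, had 837, 811 and 679 TPM and the ligand Wnt7b 103, 127 and 120.2 TPM, while Wnt1, a midbrain ligand, had 2 counts in WT2 and 0 in the other libraries. All 17 BMP and SHH genes reached 1 TPM, and 13 of 17 were lowest in WT3 in TMM-scaled CPM, beside 39.2% of all protein-coding genes at 1 TPM or more. Smo, the SHH signal transducer, had 88.9, 91.2 and 81.5 TPM, and the ligand Shh 1.51, 0.367 and 2.17 TPM. In the Notch pathway 19 of 19 genes reached 1 TPM, with the ligand Dll1 at 90.04, 90.4 and 79.5 TPM and the receptor Notch1 at 78.1, 77.6 and 57.3 TPM. Rbpj, its DNA-binding effector, had 29.3, 30.9 and 52.2 TPM, highest in WT3. Rbpj shares 21.1% of its stretches with other genes, nearly all of them with a pseudogene, so its level is less certain.

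Immediate early genes, which respond to activity and to handling, were mostly low. Of 12, 10 reached 1 TPM and 3 reached 10 TPM. Jun had 128, 122 and 111 TPM, whereas Fos had 1.65, 2.25 and 1.00 TPM and Egr1 4.49, 7.98 and 3.64 TPM. S phase genes were all at 10 TPM or more, 20 of 20, led by the replication clamp gene Pcna with 298, 274 and 329 TPM. In TMM-scaled CPM, 14 of 20 were lowest in WT3, beside 39.2% of all protein-coding genes at 1 TPM or more, and 3 were highest there. Their median log2 difference of WT3 was -0.12, and -0.15 after the median of genes of similar length was subtracted. Pcna, highest in WT3, was thus not typical of its list, and it shares 23.7% of its stretches with a pseudogene. Replication-type histone cluster genes, most of whose messages lack a poly(A) tail, held only 0.0487 ± 0.00327% of the TPM, with 42 of 67 at 1 TPM or more.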
